A study of Mus musculus with 2 samples.

Results

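The genes of cholesterol synthesis and sterol regulation were followed in the corneal epithelium of C57BL/6 mice during the closure of an epithelial wound. Members were chosen by name, as 32 genes of the pathway, and a gene was read from array rows that name it. Of the 32, 27 had a row of their own, Srebf1 and Tm7sf2 had only a row that also names another gene, and Acat2, Soat1 and Nr1h2 were not analysed here. Among all rows, 30702 genes had a row of their own and 19515 of them passed a low-signal filter, all 27 members among them. The injured group was the epithelium of the wounded eye about 48 hours after it had been taken off to its full depth, up to the limbus, with a rust ring remover of 0.5 mm, when 10% of the wound was still uncovered. The uninjured group was the epithelium of the fellow eye, collected at the same time, so it came from animals that also carried a wound. Mice were 8 weeks old and of both sexes, with no transgene or mutation named in the labels, and had been anaesthetised with ketamine and xylazine. Each group was 1 array, with the number of mice behind it not given in the sources used here.

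Cells build cholesterol from acetyl-CoA through mevalonate, the isoprenoids, squalene and lanosterol. The pathway is held in balance by the SREBP transcription factors, which the escort protein SCAP carries to the Golgi when membranes are short of sterol and which the INSIG proteins hold back when sterol is plentiful. When oxysterols build up, the LXR nuclear receptors switch on genes that export cholesterol and that limit its uptake. In stratified epithelia this synthesis supplies the membranes of dividing cells and, in skin, the lipids of the barrier.

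Values are log2 intensities as deposited, between 2.54 and 14.07 over 65952 rows, with a median of 5.44 in the injured array and 5.43 in the uninjured array. A gene passed the filter if its brighter array reached 5.44, the median of the table. In both arrays 24 of the 27 members were above the 75th percentile of the table, 6.93. With 1 array in each group no test was possible. A gene is therefore called higher or lower by size alone, at 2-fold (a log2 difference of 1, injured minus uninjured), and no value has a replicate behind it. The only spread the arrays hold is that between different rows of the same gene, an SD of 0.24 in the log2 difference over 542 rows of 256 genes. Each member had a single row, so none could be compared with a second reading of itself. In a bulk sample fewer cells of a type and less RNA per cell cannot be told apart.

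At least 2-fold lower in the injured epithelium were 1 of the 4 measured sterol regulators and 2 of the 7 measured genes of transport and efflux. The 16 measured enzymes of cholesterol synthesis were all less than 2-fold apart, as were 91.9% of all genes measured. Of the 27 members 0 passed 2-fold on the higher side and 3 on the lower side, namely Mylip, Abcg1 and Insig1. Over all genes measured 4.14% passed 2-fold on the higher side and 3.92% on the lower side. At 4-fold the count was 0 higher and 2 lower, Mylip and Abcg1, against 0.707% higher and 0.784% lower of all genes. At 1.5-fold it was 1 higher, Idi1, and the same 3 lower, against 11.1% higher and 8.77% lower of all genes. The median difference of the 27 members was -0.15 on the log2 scale, and that of all genes measured was 0.06. A difference above 0 was found for 11 of the 27 members (9 under quantile normalization, 10 after loess) and for 58.4% of all genes. No member lay close to the threshold: the nearest inside was Insig1 at -1.41, and the nearest outside was Idi1 at 0.66.

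**Figure D1:**
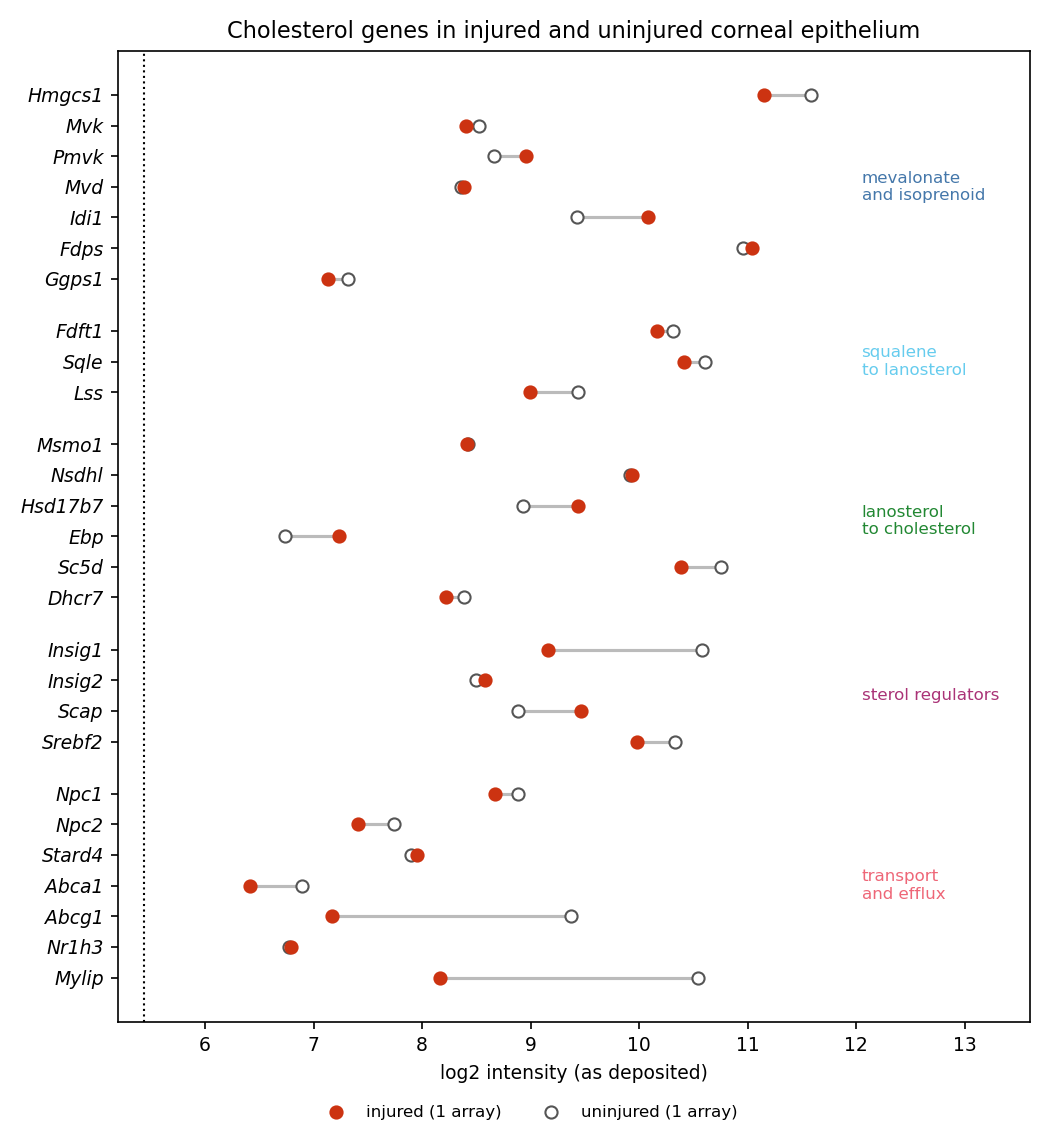
The log2 intensity of each of the 27 members (horizontal axis) is drawn by role, with filled points for the injured array and open points for the uninjured array, and the dotted line marks the low-signal level of 5.44. The points of Insig1, Abcg1 and Mylip lie more than 2-fold apart and those of the other 24 genes less, and positions of different genes cannot be compared, because each row has its own probes.

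The first stretch of the pathway leads from acetyl-CoA to the isoprenoids. Hmgcs1, which makes HMG-CoA, had a log2 intensity of 11.15 in the injured array, against 11.58 in the uninjured array, a difference of -0.43. Idi1, which converts isopentenyl pyrophosphate to its reactive isomer, stood at 10.09 in the injured array and 9.43 in the uninjured one. That difference of 0.66, or 1.58-fold, was the highest of the 27 members and ranked 1822 from the top among the 19515 genes. Both differences were larger than the SD between rows of a gene, within which 53.7% of all genes lay, and they had opposite signs. That SD holds no spread between animals or arrays, so passing it does not establish a direction.

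The other 5 measured genes of this stretch spanned -0.19 to 0.30. Pmvk, the kinase that adds a further phosphate to phosphomevalonate, had 8.96 in the injured array and 8.66 in the uninjured array, the top of that span. Ggps1, which makes geranylgeranyl pyrophosphate for protein prenylation and so stands on a side branch, had 7.13 in the injured array and 7.32 in the uninjured array, its bottom. Mevalonate kinase, Mvk (-0.12), the decarboxylase Mvd (0.03) and the farnesyl pyrophosphate synthase Fdps (0.09) differed by less than the SD between rows. The median difference of the 7 measured genes was 0.03.

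The steps committed to sterols run from farnesyl pyrophosphate to lanosterol. Squalene synthase, Fdft1, had a log2 intensity of 10.16 in the injured array and 10.31 in the uninjured array, a difference of -0.15. Squalene epoxidase, Sqle, an oxygen-dependent step that can limit the pathway, had 10.42 in the injured array and 10.61 in the uninjured array (-0.19). Lanosterol synthase, Lss, had 8.997 in the injured array and 9.44 in the uninjured array (-0.44). All 3 differences were below 0, each by less than 1.5-fold, and that of Lss was the lowest of the 16 measured enzymes.

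From lanosterol to cholesterol the differences lay on both sides of 0. Hsd17b7, a sterol ketoreductase, had 9.43 in the injured array against 8.93 in the uninjured array (0.50). Ebp, the sterol isomerase, had 7.23 in the injured array against 6.74 in the uninjured array (0.49). Sc5d, the lathosterol desaturase, had 10.39 in the injured array against 10.75 in the uninjured array (-0.37). The C4 demethylation enzymes Msmo1 (-0.01) and Nsdhl (0.02) and the reductase of a last step, Dhcr7 (-0.16), differed by less than the SD between rows. The median difference of these 6 enzymes was 0.01. Tm7sf2, a sterol reductase, shares its row with Vps51. That row had 7.27 in the injured array and 7.52 in the uninjured array, and the signals of its genes cannot be told apart.

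Over these 3 stretches the 16 measured enzymes had differences from -0.44 to 0.66 with a median of -0.06, and 0 of 16 passed 2-fold in either direction, a count close to the share of all genes less than 2-fold apart. Their middle range, from the 25th to the 75th percentile, was -0.19 to 0.14, and that of all genes measured was -0.16 to 0.27. Of the enzymes 7 were above 0 and 9 below, or 5 above and 11 below under quantile normalization, where Fdps and Nsdhl changed sign. The difference was smaller than the SD between rows for 9 of 16 enzymes and for 53.7% of all genes.

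**Figure D2:**
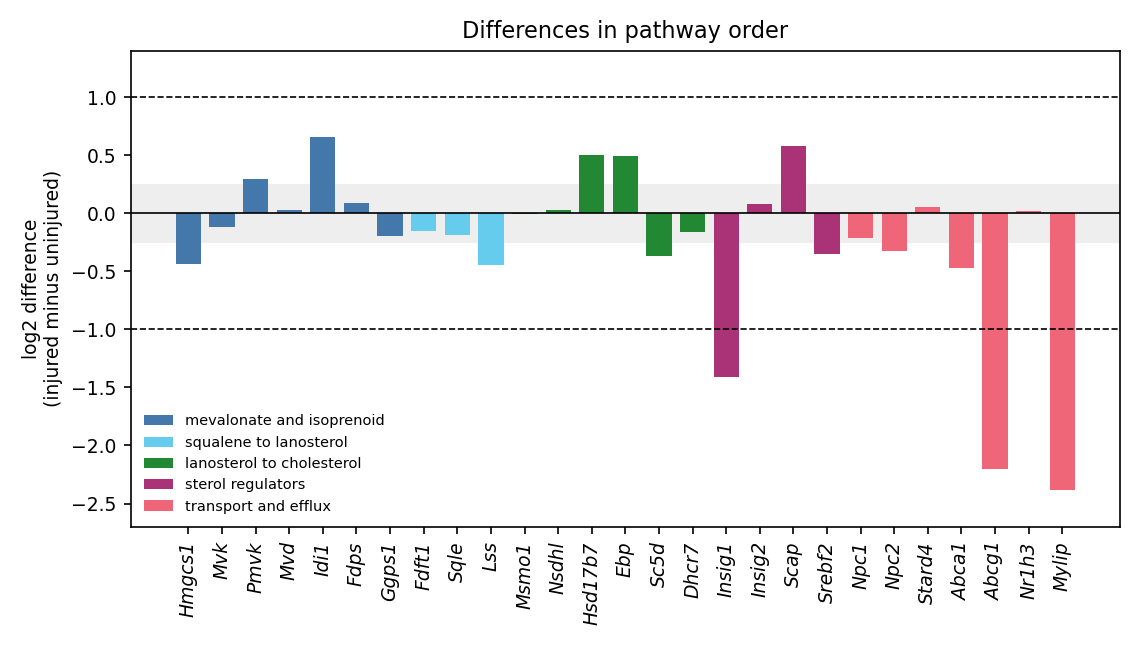
Bars give the log2 difference, injured minus uninjured, of the 27 members in the order of the pathway, coloured by role. Dashed lines mark 2-fold and the grey band is 1 SD of the difference between rows of a gene (0.24); the bars of the enzymes stay between -0.44 and 0.66, and those of Insig1, Abcg1 and Mylip cross the lower line.

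Among the regulators, Insig1 was lower in the injured epithelium. Its protein keeps the complex of SCAP and SREBP in the endoplasmic reticulum, and its gene is itself a target of SREBP. Insig1 had a log2 intensity of 9.16 in the injured array and 10.58 in the uninjured array. Its injured signal was thus 37.5% of the uninjured one (2.66-fold lower, a log2 difference of -1.41), and ranked 363 from the bottom of the 19515 genes. In RefSeq 8 of the 27 members overlap another gene, for Insig1 the long non-coding Gm35223, with the strand read by the row not given in the sources used here. Insig2, the paralog that SREBP does not control, had 8.58 in the injured array and 8.50 in the uninjured array (0.08). The difference of Insig1 minus that of Insig2 was -1.49 on the log2 scale. Such gaps were taken only for pairs that hold a gene past 2-fold, so a wide gap followed from that choice.

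Scap, the sterol-sensing escort, had 9.46 in the injured array and 8.88 in the uninjured array. At 0.58, just under 1.5-fold, its difference was the second highest of the 27 members. Srebf2, which encodes the SREBP form that mainly drives cholesterol genes, had 9.98 in the injured array and 10.33 in the uninjured array (-0.35). Srebf2 also hosts the microRNA Mir33. Srebf1, the form tied more to fatty acid synthesis, could be read only on a row shared with Mir6922, which had 8.40 in the injured array and 8.58 in the uninjured array (-0.19). The median difference of the 4 measured regulators was -0.13, with Insig1 the 1 gene past 2-fold.

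The genes of transport, efflux and LXR signalling held the lowest differences of all members. Mylip encodes a ubiquitin ligase, also called IDOL, that LXR induces and that marks lipoprotein receptors for degradation. It had a log2 intensity of 8.16 in the injured array against 10.54 in the uninjured array, a difference of -2.38. The injured signal was 19.2% of the uninjured one, or 5.22-fold lower, and ranked 104 from the bottom of all genes measured. Both values were above the 75th percentile of the table.

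Abcg1, a transporter that passes cholesterol to high-density lipoprotein and a known LXR target, had a log2 intensity of 7.17 in the injured array against 9.37 in the uninjured array. The difference was -2.20, so that the injured signal was 21.7% of the uninjured one (4.60-fold lower, rank 123 from the bottom). Abca1, the other main LXR-driven exporter, had 6.42 in the injured array against 6.89 in the uninjured array, a difference of -0.47 or less than 1.5-fold. Abca1 stayed under the 75th percentile in both arrays. The difference of Abcg1 minus that of Abca1 was -1.73 on the log2 scale. This pair was also taken because it holds a gene past 2-fold, so its gap is no separate result.

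The receptor itself, Nr1h3 (LXR alpha), had 6.80 in the injured array and 6.78 in the uninjured array, a difference of 0.02. Its values also lay below the 75th percentile, and the gene overlaps Acp2 in RefSeq. The genes that move cholesterol inside the cell were less than 1.5-fold apart. Npc1, the exporter in the lysosomal membrane, had 8.67 in the injured array and 8.88 in the uninjured array (-0.21). Npc2, its soluble partner in the lysosome, had 7.41 in the injured array and 7.74 in the uninjured array (-0.33). Stard4, a cytosolic sterol carrier that SREBP regulates, had 7.96 in the injured array and 7.90 in the uninjured array (0.06). The 7 measured genes of transport and efflux had a median difference of -0.33, with 5 below 0 and 2 above, or 6 below and 1 above after loess, where Nr1h3 changed sign.

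**Figure D3:**
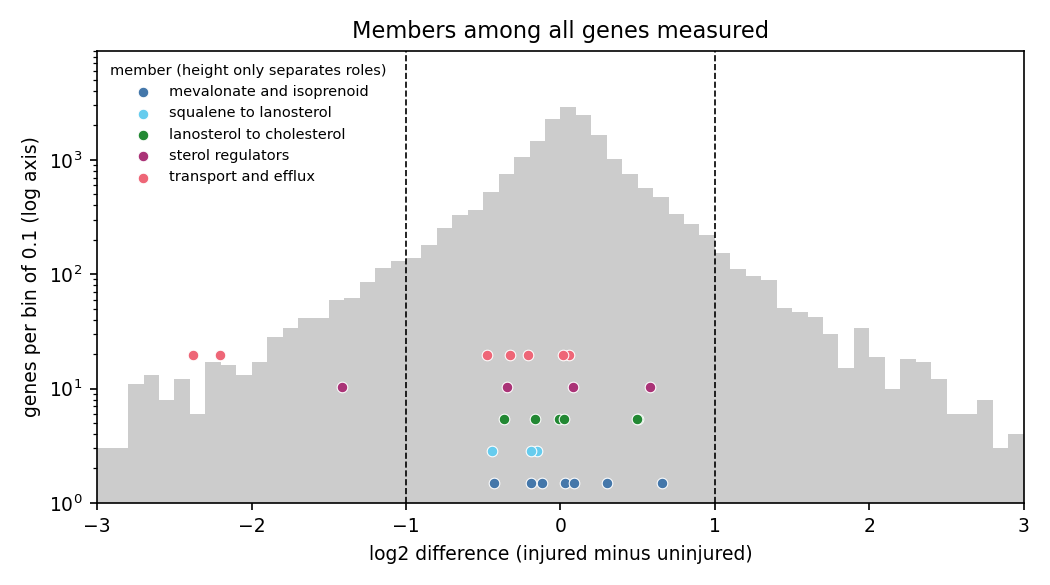
The grey histogram counts genes measured by log2 difference, injured minus uninjured, on a log axis; of the 19515 genes 86 lie beyond the limits of -3 and 3 and are not drawn. Coloured points place the 27 members, at heights that only separate their roles: Insig1, Abcg1 and Mylip lie in the lower tail and the other 24 between the dashed 2-fold lines.

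To show which regulatory letters they carry, the promoters of Insig1 and Mylip, both at least 2-fold lower, were set beside that of Hmgcs1, an SREBP-driven enzyme gene less than 2-fold apart. Of the 32 members 26 had a promoter in the RefSeq table for GRCm38.p6, which runs from 250 bases before to 50 bases after an annotated start. Abcg1, the third gene at least 2-fold lower, was not in that table, nor were Fdps, Fdft1, Sqle, Npc1 and Stard4. The motif counts do not cover these genes. All 3 lie on the plus strand: Insig1 at chr5:28071162-28071461, Mylip at chr13:45389492-45389791 and Hmgcs1 at chr13:119690101-119690400. Capitals mark CCAAT or its reverse complement, the box bound by NF-Y, a partner of SREBP, and in Hmgcs1 also the sterol element.
Insig1: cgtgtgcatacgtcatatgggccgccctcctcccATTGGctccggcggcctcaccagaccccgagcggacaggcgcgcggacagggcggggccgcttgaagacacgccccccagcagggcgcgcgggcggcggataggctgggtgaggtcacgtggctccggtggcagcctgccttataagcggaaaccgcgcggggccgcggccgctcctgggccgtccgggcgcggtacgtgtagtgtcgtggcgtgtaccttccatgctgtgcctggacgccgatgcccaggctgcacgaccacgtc
Mylip: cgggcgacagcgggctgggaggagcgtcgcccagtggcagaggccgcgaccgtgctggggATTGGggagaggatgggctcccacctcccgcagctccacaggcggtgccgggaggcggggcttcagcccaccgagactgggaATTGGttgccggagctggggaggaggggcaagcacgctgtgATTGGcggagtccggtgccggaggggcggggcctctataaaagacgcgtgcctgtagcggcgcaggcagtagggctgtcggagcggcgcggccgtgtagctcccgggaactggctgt
Hmgcs1: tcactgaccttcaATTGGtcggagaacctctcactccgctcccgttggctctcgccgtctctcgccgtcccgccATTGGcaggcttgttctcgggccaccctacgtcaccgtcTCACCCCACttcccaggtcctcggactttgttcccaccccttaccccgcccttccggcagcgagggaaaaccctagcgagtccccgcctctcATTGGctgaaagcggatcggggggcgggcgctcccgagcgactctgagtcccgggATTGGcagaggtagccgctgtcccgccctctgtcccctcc

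A sterol regulatory element spelled TCACNCCAC, searched on both strands as were the other motifs, was found in Hmgcs1 at base 114 of the 300 as TCACCCCAC and in 0 of the other 25 members. Of all genes listed 1.44% held it in at least 1 of their promoters. The CCAAT box occurred in 14 of 15 synthesis enzyme genes, counting a gene once over all its starts, and in 21 of the 26 members, against 41.1% of all genes in the table. It was present 1 time in Insig1, 3 times in Mylip and 4 times in Hmgcs1. The GC box GGGCGG, bound by Sp1, occurred in 22 of the 26 members and in 38.2% of all genes, and its letters can overlap those of a CCAAT box on the other strand. An LXR element, written as a direct repeat of AGGTCA with 4 letters between the copies, occurred in 0 of the 26 members and in 0.0148% of all genes. A match describes the letters of these windows and not a bound site, and sequence outside them was not searched. Each element was searched only as spelled here, so variant spellings were missed. With so rare a spelling of the LXR element, 0 of 26 says little. A count of 0 does not show that a gene, Insig1 included, lacks a sterol or LXR element.

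Other genes of the pathway were described by lists. Of 11 genes for further steps of synthesis and for lipoprotein uptake 6 were measured, with a median difference of 0.41. Lrp8, a member of the lipoprotein receptor family, was the 1 gene past 2-fold, with 8.15 in the injured array against 6.80 in the uninjured array (1.35). Cyp51, the lanosterol demethylase, had 10.20 in the injured array and 10.03 in the uninjured array (0.17), within the span of the other enzymes.

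The list of storage, transfer and efflux genes had 19 of 20 measured and a median difference of -0.12, with 1 gene past 2-fold on each side. Pltp, a phospholipid transfer protein and a known LXR target, had 8.97 in the injured array against 7.54 in the uninjured array (1.43, 2.70-fold), the opposite direction to Mylip and Abcg1. Stard5, a sterol carrier, lay just under 2-fold, with 7.49 in the injured array and 6.49 in the uninjured array. Osbpl2, of the oxysterol-binding protein family, had 8.38 in the injured array against 9.50 in the uninjured array (-1.13). Apoe, another gene that LXR can induce, had 8.09 in the injured array and 8.45 in the uninjured array (-0.37).

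All 5 oxysterol genes were measured, with a median difference of 0.19. Cyp7b1, which hydroxylates oxysterols on the way to their removal, had 6.87 in the injured array against 5.33 in the uninjured array (1.55). The uninjured value lies below the low-signal level, so the size of this difference is uncertain. Ch25h, which makes an oxysterol that activates LXR and blocks SREBP, had 6.65 in the injured array and 6.27 in the uninjured array (0.38). Over these lists and those of the isoprenoid branches and of the processing of the regulators together, 3 of 47 measured genes passed 2-fold on the higher side and 1 on the lower side, near the shares of all genes (4.14% higher and 3.92% lower).

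**Figure D4:**
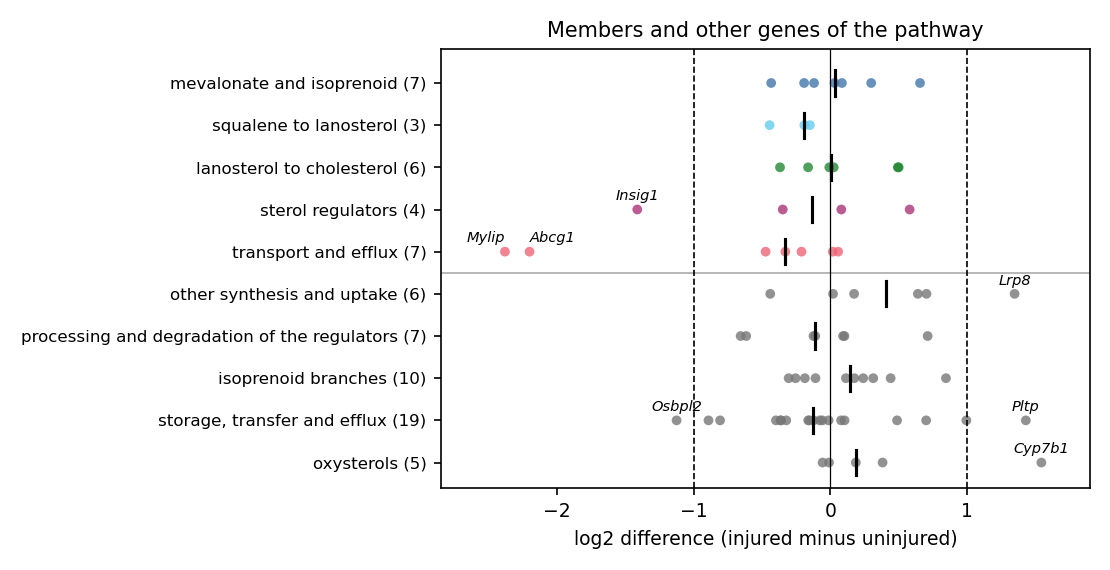
Each point is a gene at its log2 difference, injured minus uninjured, with the roles of the members in colour above the line and the other lists of the pathway in grey below it; black ticks are medians, dashed lines mark 2-fold and numbers in brackets count measured genes. Named points are the genes past 2-fold: Mylip, Abcg1, Insig1 and Osbpl2 on the lower side, and Lrp8, Pltp and Cyp7b1 on the upper side.

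Markers of cell types also differed between the arrays. All 8 corneal epithelial markers passed the filter in this labelled corneal epithelium, 3 of them at least 2-fold lower and 1 at least 2-fold higher. Krt12, the corneal keratin, had 10.85 in the injured array against 14.07 in the uninjured array. Aldh3a1 (-2.68) and Pax6 (-1.32) were also at least 2-fold lower. Krt14, a basal keratin, had 13.38 in the injured array against 11.16 in the uninjured array. Of the 8 markers 2 had a difference above 0, Krt14 and Cdh1 (0.35). The other 6 were below 0, among them Krt5 (-0.16) and Trp63 (-0.36).

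For macrophages, a cell type known to use Abca1 and Abcg1, 7 of 9 markers were measured, and 6 of the 7 had a difference above 0, each less than 2-fold. The exception was Itgam at -1.55, and the intensities of the 7 on the linear scale summed to 1346 in the injured array and 1956 in the uninjured array. That direction came from Itgam alone: the other 6 summed to 926 in the injured array and 728 in the uninjured array. Cd68 made up most of both, with 556 in the injured array and 484 in the uninjured array, so these sums follow mainly 1 row. Neutrophil markers had 6 of 8 measured, with S100a9 (1.89) past 2-fold and sums of 499 in the injured array and 319 in the uninjured array. Without S100a9 the other 5 summed to 296 in the injured array and 264 in the uninjured array. All 5 stayed under the 75th percentile of the table in both arrays. Ly6g (5.58 injured, 5.44 uninjured) and Mpo (5.49 injured, 5.45 uninjured) lay close to the low-signal level of 5.44. Of the macrophage markers Fcer1g, at 5.08 in the uninjured array, lay below it, so these sums are uncertain. The 4 of 6 measured stromal markers summed to 341 in the injured array and 400 in the uninjured array, with Dcn (-1.31) past 2-fold but below the low-signal level in the injured array, so that its size is uncertain, and the 2 of 6 measured meibomian and sebaceous gland markers to 168 in the injured array and 172 in the uninjured array. Adgre1 and Mrc1 of macrophages, S100a8 and Ngp of neutrophils, Lum and Kera of stroma, and Awat2, Far2 and Pparg of the glands lay under the filter in both arrays. The part of these shifts in the differences of Mylip, Abcg1 and Insig1 was not tested.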

How the data were processed

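RNA from injured and uninjured corneal epithelium, 2 µg of each, was amplified, labelled with biotin and hybridised to 1 array per group, per the labels' protocols. The authors' deposited values are log2 intensities. Agilent Feature Extraction 9.1 is named in the submitters' processing notes, while the row names have the form of transcript clusters. How background was corrected, probes summarised and arrays normalized, and on which genome build, is not stated in those sources. The array medians differed by 0.0135 and the 75th percentiles by 0.00513, so no further scaling was applied. Without scanner files there was no call of detection or saturation, and the number of arrays limits the precision.

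Rows were named from the platform annotation, updated through RefSeq (GRCm38.p6): 31259 rows named 1 gene, 1487 several and 33206 are unnamed here. For all 27 members the chromosome in the row name was that of the gene in RefSeq. The kept row with the highest mean stood for a gene. All 32 members are named in the text. Of the other lists of the pathway, genes at least 2-fold apart were named, up to 4 a list. Cyp51, Apoe, Stard5, Ch25h, Nus1, Dhdds and the markers given with values were chosen after their values were seen. Members and lists were chosen with earlier results of these data known. No test was run across genes. The scripts, in Python 3.11.15 with pandas 2.3.3 and statsmodels 0.14.6, were tested on simulated data. Alternatives changed the scaling (quantiles, medians or 75th percentiles made equal, or a loess of span 0.3), the filter, the row taken for a gene, the threshold (1.5-fold or 4-fold), or added 13.9 to each linear intensity.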

Additional observations from a re-analysis of the deposited data

How the results depend on the processing

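The alternatives other than the thresholds were 9, and under each of them 3 members were at least 2-fold lower and 0 at least 2-fold higher. At 1.5-fold the count of higher members was 1 in place of 0, by construction of the lower threshold. Over those alternatives the difference of Mylip ranged from -2.42 to -2.33, that of Abcg1 from -2.22 to -2.10 and that of Insig1 from -1.47 to -1.39. None of 241 differences of single members and none of 36 medians moved by more than the SD between rows. Many of the 241 could not move: each member had a single row, so changing the filter or the row taken left its difference as it was. Equal medians or equal 75th percentiles only shift every difference by 0.0135 or 0.00513. The small movement is therefore weak evidence of stability. Fdps, Nsdhl and Nr1h3, all within 0.09 of 0, changed sign under at least 1 alternative, so no direction can be read for them. A kept sign gives no direction either: Msmo1 (-0.01) and Mvd (0.03) kept theirs though far inside the SD between rows. Abca1 and Nr1h3 had no value when the brighter value had to reach the 75th percentile of the table. No paired analysis was possible because each group holds 1 array. With 1 array per group the spread between animals is unknown, and nothing here can replace it.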

Other observations

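The pathway also feeds the prenylation of proteins, ubiquinone and dolichol. Of 12 genes of these isoprenoid branches 10 were measured, 0 of them at least 2-fold apart, with a median difference of 0.15 on the log2 scale, injured minus uninjured. The highest was Nus1, a subunit of the enzyme that makes dolichol, with 9.70 in the injured array and 8.85 in the uninjured array (0.85). Its partner Dhdds had 8.12 in the injured array and 8.30 in the uninjured array (-0.19).

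Of 10 genes listed for the processing of SREBP or the degradation of sterol-regulated proteins 7 were measured. Of these 0 were at least 2-fold apart, and the median difference was -0.11. Erlin1 and Erlin2, membrane proteins of the endoplasmic reticulum that take part in that degradation, had differences of -0.62 and -0.66. The largest difference of the list was in the other direction, that of Ubxn8, with 9.05 in the injured array and 8.34 in the uninjured array (0.71). Ubxn8 may not belong on this list: its part in that degradation was not checked here, and the count and median of the list include it. Mbtps1, the protease that makes the first cut in SREBP, had 8.77 in the injured array and 8.89 in the uninjured array (-0.12). These genes were named after their values were seen.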
